A study of Homo sapiens with 13 samples.

Results

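The genes described here encode the protein parts of the mitochondrial ribosome. They were chosen by name: every probe of the normalized table whose annotated symbol is MRPL or MRPS followed by a number was a member, which gave 102 of 12007 probes and 76 of 8378 genes. Of the 76 genes, 50 encode large-subunit proteins and 26 small-subunit proteins, counting MRPS18A and MRPS30 in the large subunit, where the mammalian proteins sit. The samples were 13 libraries of mRNA captured on streptavidin beads from HEK293T cells, a human embryonic kidney line, 24 h after transfection with 200 pmol of a biotin-labelled synthetic miRNA duplex. Each of miR-17-5p-iso, miR-17-5p and miR-27a was captured in 3 libraries, and miR-182-iso and miR-23b in 2 libraries apiece, where "iso" marks an isomiR, a miRNA cut from the same precursor at another position. All groups share the cell line, the dose and the time, and each miRNA was an added duplex, not the miRNA made by the cells. No mock-transfected library and no library of total cell RNA is among these samples, so each pull-down was set against the mean of the unrelated miRNA families, and a difference in capture cannot be told apart from a difference in the amount of the mRNA in the cell. As each library is bulk RNA, fewer cells that carry an mRNA and less of it per cell cannot be told apart either.

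Mitochondria carry their own ribosome, which translates the few membrane proteins of the respiratory chain that mitochondrial DNA encodes. Its RNAs come from the mitochondrial genome, whereas all of its proteins are made from nuclear genes, translated in the cytosol and imported. Some of these proteins have bacterial counterparts and others were added in the course of mitochondrial evolution. In the cytosol, the mRNAs of these proteins can meet a miRNA loaded into the silencing complex, where bases 2 to 8 of the miRNA, the seed, are the best known site of pairing and the centre of the miRNA is another. Pull-down with a biotinylated duplex recovers the mRNAs bound to it, together with whatever else stays on the beads.

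The guide strands of the 5 duplexes are shown because each comparison below is one of these sequences against others. Seeds are in capitals and differ between all 5 duplexes. Those of miR-27a and miR-23b differ in 1 base only, and those of miR-17-5p and its isomiR are shifted by 1 base. As miR-27a and miR-23b were counted as unrelated, a signal that both share counts for less in their differences.
miR-17-5p: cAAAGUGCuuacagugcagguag
miR-17-5p-iso: uCAAAGUGcuuacagugcaggua
miR-27a: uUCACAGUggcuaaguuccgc
miR-23b: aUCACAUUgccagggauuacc
miR-182-iso: uGGCAAUGguagaacucacacu
The miR-17-5p strand equals the RefSeq mature miRNA at chr13:91350618-91350640 on the plus strand of GRCh38.p14, and miR-17-5p-iso starts 1 base earlier. The miR-27a strand equals RefSeq miR-27a-3p, encoded on the minus strand at chr19:13836447-13836467. The miR-23b strand is the first 21 bases of RefSeq miR-23b-3p, encoded on the plus strand at chr9:95085265-95085287. The miR-182-iso strand starts 2 bases later than RefSeq miR-182-5p, which is encoded on the minus strand at chr7:129770447-129770470.

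Signals are on the log2-like scale of a variance-stabilizing transformation, on which differences of dim probes are compressed. Library medians over all probes lay between 8.53 and 8.60. Where a gene had several probes, the probe with the highest mean signal stands for it. Mitochondrial ribosomal protein genes were bright: their mean signals had a median of 9.89, against 8.78 for all genes, and 64 of 76 lay at or above the median probe mean of 8.59, against 4657 of 8378 genes. A gene was called where limma gave an adjusted p under 0.05, adjusted over all 12007 probes. Nothing in the sources says that replicates came from separate cultures, so these p-values measure the spread between libraries only, and the small number of arrays limits the precision. All 6 HEK293T markers examined had a probe, as did 2 of 12 markers of other cells, CD68 and COL1A1. COL1A1 was dim, with a mean of 7.51, and was called in no comparison, whereas CD68 differed by 0.98 with miR-27a (adjusted p = 0.0218) and by -1.52 with miR-182-iso (adjusted p = 0.00495), and its part in the member results was not tested.

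Signals of many mitochondrial ribosomal protein mRNAs differed among the pull-downs. By limma's moderated F over the 5 groups, 46 of 76 member genes varied, a share of 60.5% against 45.7% of all genes. In a fit of the brighter probes only, 40 of 64 member genes varied (62.5%, against 59.6% of 4657 genes). At like brightness the members thus varied little more often than other genes. Without both miR-182-iso libraries 27 member genes varied (35.5%, against 23.5% of all genes). The highest F values belonged to MRPS2, MRPL14 and MRPL55, followed by MRPS33, MRPS30 and MRPL17, and the lowest to MRPS34, at 0.30. Member genes were called in no comparison with the unrelated duplexes in 24 cases, in 1 in 22 cases, in 2 in 13 cases, in 3 in 11 cases and in 4 in 6 cases. The 6 genes called in 4 comparisons were MRPL3, MRPL9, MRPL14, MRPL55, MRPS2 and MRPS30. These comparisons share libraries, so the calls of a gene in several of them are not independent of each other.

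Counted without a model, a gene could also have all libraries of a pull-down above, or all below, every library of the unrelated duplexes. With miR-182-iso, 14 members lay above (12.8% of all genes did) and 3 below (11%). With miR-27a, 6 lay above (6.16% of all genes) and 8 below (5.88%), and with miR-23b, 5 lay above (7.03%) and 3 below (3.27%). The miR-17-5p libraries had 10 members above (3.68% of all genes) and the isomiR libraries 11 (4.95%), with no member below in either case (1.8% and 1.86% of all genes). Groups of 2 libraries separate more readily than groups of 3, so these counts are read only against the share of all genes in the same comparison.

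**Figure D1:**
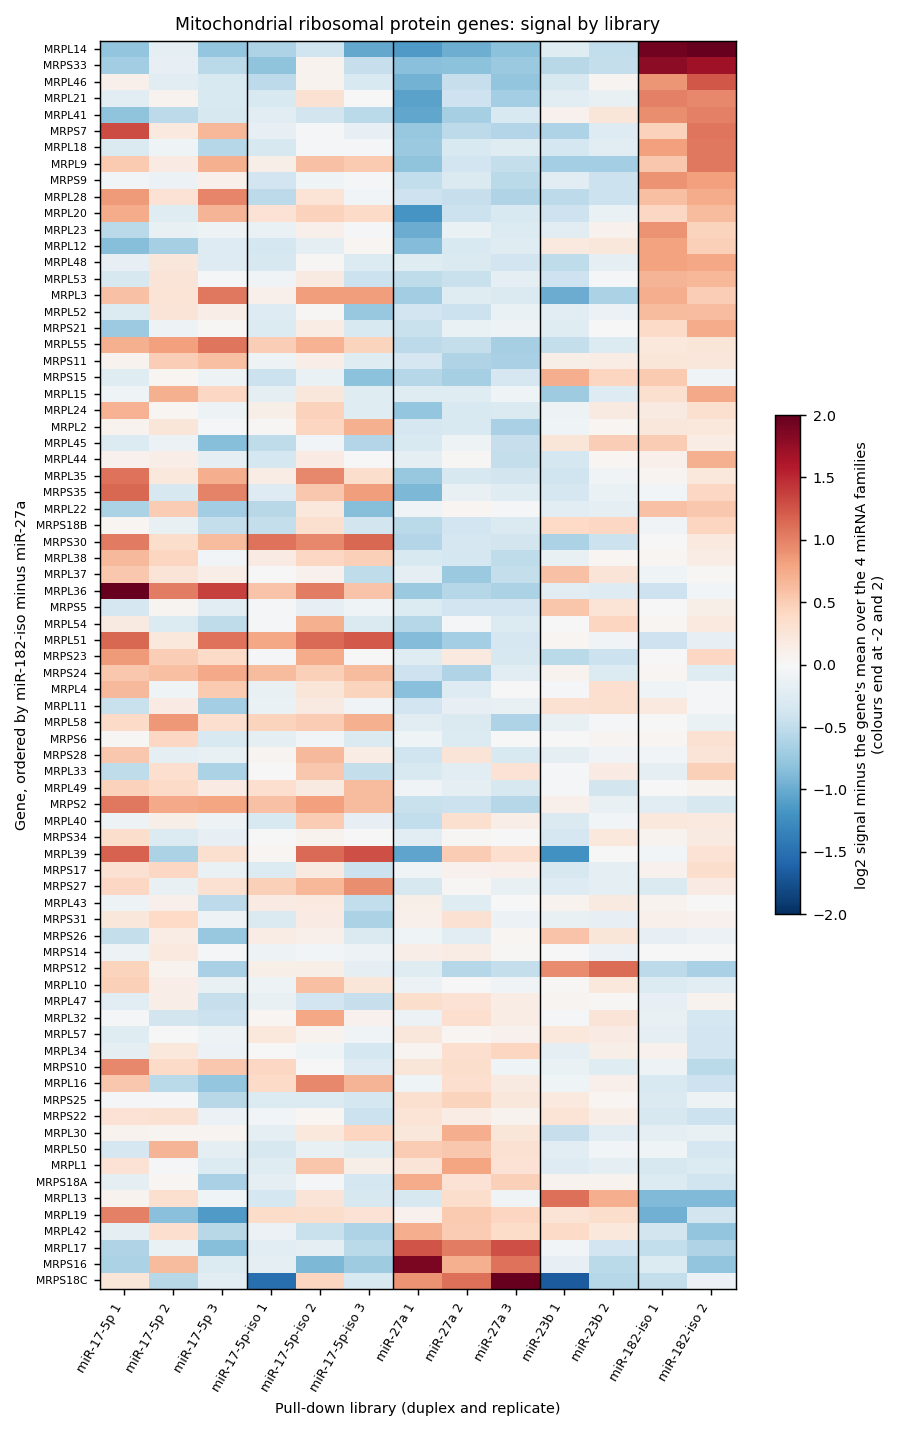
Each row is a mitochondrial ribosomal protein gene and each column a library, with the colour giving the log2 signal minus the gene's mean over the 4 miRNA families. Genes are ordered by miR-182-iso minus miR-27a, from MRPL14 (2.95) at the top to MRPS18C (-2.02) at the bottom.

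In the miR-182-iso pull-down, mitochondrial ribosomal protein mRNAs were more often higher than lower, led by MRPL14 and MRPS33. Of 76 genes, 18 were higher (23.7%, against 16.9% of all genes) and 7 were lower (9.21%, against 17.3% of all genes), with a median difference of 0.14 among members and -0.02 among all genes. Without miR-182-iso replicate 2, the counts were 10 higher and 1 lower, beside 5.71% and 3.49% of all genes in that fit, and without replicate 1, 4 were lower, beside 10.5% of all genes. Of the genes for cytosolic ribosomal proteins, 16 of 70 were higher (22.9%) and 5 lower with miR-182-iso, with a median of 0.34, so more higher than lower calls were not particular to the mitochondrial family. By position in the ribosome, 14 of 50 large-subunit genes were higher and 4 lower, and 4 of 26 small-subunit genes were higher and 3 lower.

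MRPL14, a bacterial-type protein at the face of the large subunit that meets the small one, had signals of 12.98 and 13.07 in the miR-182-iso libraries, against 9.91, 10.07 and 10.22 with miR-27a, 10.81 and 10.56 with miR-23b, 10.25, 10.86 and 10.27 with miR-17-5p, and 10.43, 10.65 and 10.03 with miR-17-5p-iso. Both miR-182-iso libraries stood far above every other library, and the rest lay close together. The difference was 2.63 (SE 0.19, limma adjusted p = 2.28e-05) and stayed between 2.59 and 2.68 when any 1 library was left out. MRPS33, a small-subunit protein with no bacterial counterpart, gave 11.55 and 11.45 with miR-182-iso, against 8.93, 8.95 and 9.02 with miR-27a, 9.21 and 9.29 with miR-23b, 9.07, 9.60 and 9.22 with miR-17-5p, and 8.96, 9.84 and 9.30 with miR-17-5p-iso. Again no other library came near the pair, and the difference was 2.32 (SE 0.19, adjusted p = 7.03e-05). The second MRPS33 probe, which was dim, was also higher with miR-182-iso, at 8.47 and 8.69. On this probe the pair stood less clear, since miR-17-5p replicates 2 and 3 had 8.35 and 8.02.

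MRPL46, a large-subunit protein without a bacterial counterpart, had signals of 10.59 and 10.96 in the miR-182-iso libraries, against 8.77, 9.26 and 8.92 with miR-27a, 9.39 and 9.77 with miR-23b, 9.82, 9.48 and 9.41 with miR-17-5p, and 9.19, 9.79 and 9.41 with miR-17-5p-iso. The pair lay above all other libraries, by less than for MRPL14. The difference was 1.42 (SE 0.19, adjusted p = 0.000682). MRPL21 (1.31), MRPL41 (1.29), MRPL18 (1.25), MRPS9 (1.15) and MRPL48 (1.05) were also higher, with both miR-182-iso libraries above every unrelated library. These 5, with MRPL14, MRPS33 and MRPL46, were the genes whose higher call held without each library in turn and under every other alternative tried.

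MRPL13, a bacterial-type large-subunit protein, was the most reduced member: 9.64 and 9.64 with miR-182-iso, against 10.21, 10.87 and 10.46 with miR-27a, 11.63 and 11.25 with miR-23b, 10.59, 10.84 and 10.44 with miR-17-5p, and 10.17, 10.78 and 10.20 with miR-17-5p-iso. Both miR-182-iso libraries lay below all others. The difference was -1.18 (SE 0.20, adjusted p = 0.00204), the only lower call that held without each library in turn. MRPS12, part of the decoding site of the small subunit, had 10.53 and 10.41 with miR-182-iso and a difference of -0.78 (adjusted p = 0.0219), a value that lost its call without either miR-182-iso library (-0.85, adjusted p = 0.0875, without replicate 1, and -0.72, adjusted p = 0.19, without replicate 2). The miR-182-iso libraries lay near those of miR-27a (10.82, 10.49 and 10.58), with no call between these 2 pull-downs, and the comparator held the miR-23b libraries, its highest. No other MRPS12 probe was called with miR-182-iso. The remaining values of MRPS12 are given with miR-23b. MRPL42, a large-subunit protein with no bacterial counterpart, had 9.89 and 9.47 with miR-182-iso, against 10.99, 10.76 and 10.63 with miR-27a, 10.64 and 10.47 with miR-23b, 10.06, 10.58 and 9.71 with miR-17-5p, and 10.14, 9.81 and 9.65 with miR-17-5p-iso. The miR-182-iso pair overlapped the libraries of the miR-17 family and lay below the rest. The difference was -0.76 (adjusted p = 0.0203), and -0.55 (adjusted p = 0.263) without miR-182-iso replicate 2, and the other MRPL42 probe differed by 0.20 and was not called.

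**Figure D2:**
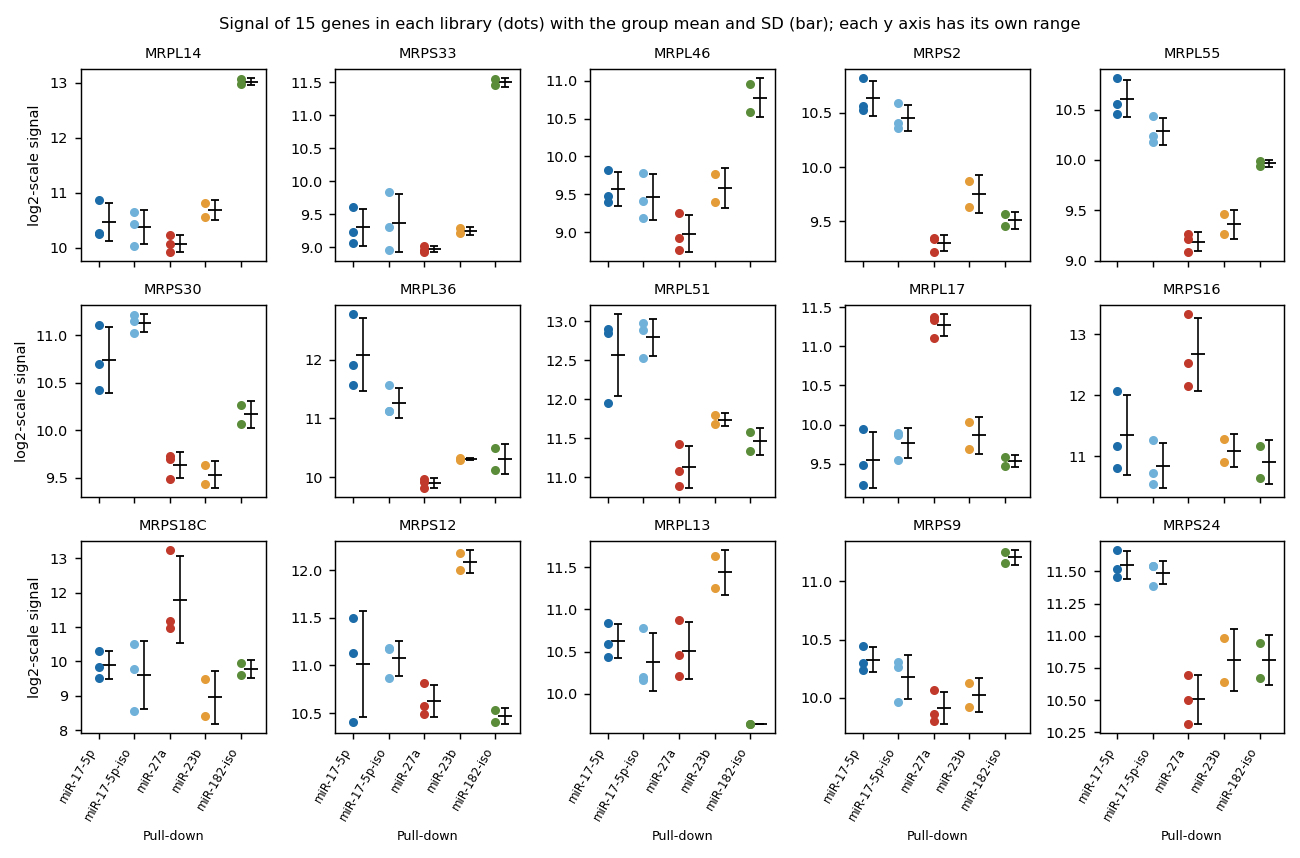
Each panel shows the log2-scale signal of a gene in the 13 libraries (dots), with the mean and SD of each pull-down beside them (bar). MRPL14, MRPS33, MRPL46 and MRPS9 were high with miR-182-iso, MRPS2, MRPL55, MRPS30, MRPL36, MRPL51 and MRPS24 with miR-17-5p and its isomiR, MRPL17, MRPS16 and MRPS18C with miR-27a, and MRPS12 and MRPL13 with miR-23b.

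The miR-27a pull-down held less of many mitochondrial ribosomal protein mRNAs and more of a few. Of 76 genes, 32 were lower (42.1%, against 16.9% of all genes) and 9 were higher (11.8%, against 17.1% of all genes), and 56 of 76 differences were negative, with a median of -0.35 among members and -0.03 among all genes. Among the 64 brighter members 28 were lower (43.8%, against 20.4% of the 4657 brighter genes). The count of lower genes depended on the miR-182-iso libraries in the comparator: without both, 14 members were lower (18.4%, against 7.62% of all genes) and 4 were higher (5.26%, against 7.77%), with a member median of -0.23. Without miR-27a replicate 1, 17 were lower and 5 higher, beside 10.2% and 10.1% of all genes in that fit, and without miR-27a replicate 2, 5 were higher, beside 12.9%.

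Large-subunit genes had a median difference of -0.40 with miR-27a, with 22 of 50 lower and 6 higher, and small-subunit genes a median of -0.20, with 10 of 26 lower and 3 higher. Genes with a bacterial counterpart had a median of -0.39 (20 of 44 lower, 5 higher) and the other members one of -0.34 (12 of 32 lower, 4 higher). Of the genes for cytosolic ribosomal proteins, 20 of 70 were lower and 1 higher, with a median of -0.38. The library medians of the member deviations were -0.31, -0.23 and -0.22 in the 3 miR-27a libraries, each below those of the other 10 libraries, which ran between -0.15 and 0.18.

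The 3 lowest values with miR-27a were those of MRPL14 (-1.31), MRPS33 (-1.06) and MRPL46 (-0.98), the genes that the miR-182-iso libraries held at their highest. Without both miR-182-iso libraries MRPL14 differed by -0.48 (limma adjusted p = 0.103), MRPS33 by -0.33 (adjusted p = 0.269) and MRPL46 by -0.57 (adjusted p = 0.0567), so none of the 3 calls held. Of the 32 lower genes, 14 kept their call without those libraries, and of the 9 higher genes, 4 did. MRPS2 (-0.85, adjusted p = 0.00214), MRPL55 (-0.72, adjusted p = 0.0045), MRPS11 (-0.67, adjusted p = 0.0159), MRPS24 (-0.66, adjusted p = 0.00867) and MRPS5 (-0.50, adjusted p = 0.0163) kept it there and without each library in turn. The comparator still held the miR-17 family, in which MRPS2, MRPL55 and MRPS24 were high (1.12, 1.10 and 0.84 with miR-17-5p). It also held miR-23b, with which MRPS5 was higher (0.56). For MRPL55, the miR-27a libraries (9.22, 9.26 and 9.08) overlapped those of miR-23b (9.26 and 9.46). So did those of MRPS24 (10.50, 10.31 and 10.70, against 10.98 and 10.64).

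MRPS18C, 1 of 3 human relatives of bacterial protein S18, was the member most enriched with miR-27a: 10.97, 11.17 and 13.25 in the miR-27a libraries, against 8.40 and 9.50 with miR-23b, 9.59 and 9.95 with miR-182-iso, 10.31, 9.51 and 9.85 with miR-17-5p, and 8.55, 10.50 and 9.76 with miR-17-5p-iso. All 3 miR-27a libraries lay above the rest, the third by far the most, and the other groups overlapped widely. The difference was 2.31 (SE 0.53, limma adjusted p = 0.0107), and leaving out 1 library gave values between 1.58 and 2.72. MRPS16, a small-subunit protein, had 13.33, 12.16 and 12.53 with miR-27a, against 11.29 and 10.91 with miR-23b, 11.17 and 10.65 with miR-182-iso, 10.81, 12.07 and 11.16 with miR-17-5p, and 11.26, 10.55 and 10.73 with miR-17-5p-iso. The lowest miR-27a library was only just above the second miR-17-5p library. The difference was 1.64 (SE 0.31, adjusted p = 0.00463), between 1.31 and 1.90 without any 1 library.

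MRPL17, a large-subunit protein near the exit of the peptide tunnel, gave 11.33, 11.11 and 11.37 with miR-27a, against 10.03 and 9.69 with miR-23b, 9.58 and 9.47 with miR-182-iso, 9.48, 9.94 and 9.22 with miR-17-5p, and 9.87, 9.89 and 9.55 with miR-17-5p-iso. The 3 miR-27a libraries agreed closely and stood clear of all others. The difference was 1.59 (SE 0.15, limma adjusted p = 0.000265), and without both miR-182-iso libraries 1.51 (adjusted p = 0.00176). MRPS18A (0.67) was the fourth gene whose higher call held without each library in turn and without both miR-182-iso libraries. MRPL42 (0.72), MRPL1 (0.60), MRPL50 (0.59) and MRPS25 (0.44) were higher in the comparison with all unrelated duplexes. MRPL30 was counted as higher by its brighter probe (0.53), but its other probe gave -0.33, without a call.

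**Figure D3:**
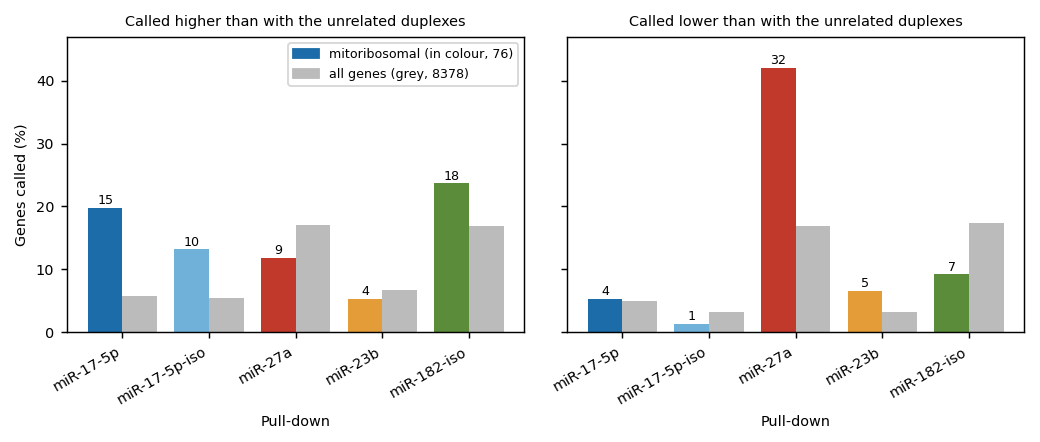
Bars give the percentage of genes called higher (left) or lower (right) in each pull-down than with the unrelated duplexes, for the 76 mitochondrial ribosomal protein genes (in colour, with their number above) and all 8378 genes (grey). The tallest bar is the 32 genes lower with miR-27a.

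The miR-17-5p pull-down held more of 15 mitochondrial ribosomal protein mRNAs and less of 4. The 15 higher genes were 19.7% of members, against 5.81% of all genes, and the 4 lower ones 5.26%, against 4.91% of all genes. Both medians were near 0, at -0.01 for members and -0.02 for all genes. Leaving out miR-17-5p replicate 1 gave 8 higher and 1 lower (4.24% and 3.17% of all genes in that fit), replicate 2 of that group 10 lower (6.79%), and replicate 3 gave 7 higher and 2 lower (2.7% and 1.72%). Leaving out a miR-23b library gave 8 higher in either case (3.86% of all genes without replicate 1 and 3.95% without replicate 2), with 2 lower for its replicate 1 (2.75%), and leaving out the first miR-182-iso library gave 9 higher and 2 lower (4.13% and 3.17%). The isomiR pull-down held more of 10 members (13.2%, against 5.47% of all genes) and less of 1 (1.32%, against 3.13% of all genes), with a member median of -0.03. Without its replicate 3, the isomiR pull-down had 5 higher and 0 lower genes, beside 2.82% and 0.764% of all genes. Its lower count was 3 without isomiR replicate 2 (1.87% of all genes), and also without the second (4.14%) or the third (3%) miR-17-5p library, and 2 without the first miR-27a library (2.52%) or the second miR-182-iso library (1.92%). In the absence of both miR-182-iso libraries, 18 members were higher with miR-17-5p (8.32% of all genes) and 2 lower (9.52%), and 13 were higher with the isomiR (6.33%) and 3 lower (5.98%).

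MRPL36, a small bacterial-type protein of the large subunit, was the most enriched member with miR-17-5p: 12.77, 11.56 and 11.91, and 11.12, 11.56 and 11.12 with miR-17-5p-iso, against 9.81, 9.97 and 9.91 with miR-27a, 10.32 and 10.29 with miR-23b, and 10.13 and 10.49 with miR-182-iso. All 6 libraries of the miR-17 family lay above the 7 unrelated ones. The difference was 1.92 with miR-17-5p (SE 0.22, limma adjusted p = 0.00125), between 1.57 and 2.18 without any 1 library, and 1.10 with miR-17-5p-iso (SE 0.22, adjusted p = 0.0147). The isomiR call was lost without miR-17-5p-iso replicate 2 (0.95, adjusted p = 0.0644) or replicate 3 (1.17, adjusted p = 0.0518).

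MRPS2, a bacterial-type small-subunit protein, had signals of 10.82, 10.53 and 10.56 with miR-17-5p and 10.36, 10.59 and 10.41 with miR-17-5p-iso, against 9.34, 9.34 and 9.21 with miR-27a, 9.87 and 9.63 with miR-23b, and 9.56 and 9.45 with miR-182-iso. The 2 sets did not overlap, and libraries of 1 group lay within a narrow band. The difference was 1.12 with miR-17-5p (SE 0.09, adjusted p = 0.000287) and 0.94 with miR-17-5p-iso (SE 0.09, adjusted p = 0.000346). MRPL55, a large-subunit protein with no bacterial counterpart, had 10.46, 10.56 and 10.81 with miR-17-5p and 10.24, 10.43 and 10.18 with miR-17-5p-iso, against 9.22, 9.26 and 9.08 with miR-27a, 9.26 and 9.46 with miR-23b, and 9.94 and 9.99 with miR-182-iso. The miR-182-iso pair lay between the miR-17 family and the other unrelated libraries. The difference was 1.10 with miR-17-5p (SE 0.09, adjusted p = 0.000327) and 0.78 with miR-17-5p-iso (SE 0.09, adjusted p = 0.001).

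MRPS30, which despite its name sits in the large subunit, had 11.11, 10.42 and 10.70 with miR-17-5p and 11.14, 11.02 and 11.21 with miR-17-5p-iso, against 9.48, 9.73 and 9.70 with miR-27a, 9.43 and 9.63 with miR-23b, and 10.06 and 10.27 with miR-182-iso. The 6 libraries of the family lay above the miR-182-iso pair, which lay above the other unrelated libraries. The difference was 1.35 with miR-17-5p-iso (SE 0.14, limma adjusted p = 0.000379) and 0.96 with miR-17-5p (SE 0.14, adjusted p = 0.00277). MRPL51, another large-subunit protein, had 12.90, 11.96 and 12.85 with miR-17-5p and 12.53, 12.89 and 12.98 with miR-17-5p-iso, against 10.89, 11.08 and 11.42 with miR-27a, 11.80 and 11.68 with miR-23b, and 11.34 and 11.59 with miR-182-iso. Its second miR-17-5p library was lower than the others of the family but above the unrelated ones. The difference was 1.35 with miR-17-5p-iso (adjusted p = 0.0035) and 1.12 with miR-17-5p (adjusted p = 0.00967), with 0.98 (adjusted p = 0.0565) for the second without miR-17-5p replicate 3.

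MRPS24 was higher by 0.84 with miR-17-5p (limma adjusted p = 0.00209) and 0.78 with miR-17-5p-iso (adjusted p = 0.00241). MRPL58, a peptidyl-tRNA hydrolase built into the large subunit that releases stalled ribosomes, was higher by 0.71 with miR-17-5p (adjusted p = 0.00967). With miR-17-5p the calls of MRPL36, MRPS2, MRPL55, MRPS30, MRPS24 and MRPL58 held without each library in turn, and with miR-17-5p-iso those of MRPL51, MRPS30, MRPS2, MRPS24 and MRPL55 did. MRPL35 (0.87), MRPL3 (0.85), MRPS7 (0.83), MRPL28 (0.81), MRPS10 (0.74), MRPS23 (0.71), MRPL9 (0.61) and MRPL49 (0.46) completed the genes higher with miR-17-5p. With the replicate number as a block in the model, MRPL35, MRPS7, MRPL9 and MRPL49 were no longer called. MRPS27 (0.83), MRPL3 (0.80), MRPL58 (0.73) and MRPL49 (0.51) completed those higher with the isomiR.

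None of the lower calls of the miR-17 family held without each library in turn. MRPL14 differed by -0.80 with miR-17-5p (limma adjusted p = 0.0155) and by -0.89 with miR-17-5p-iso (adjusted p = 0.00965), but without both miR-182-iso libraries the differences were 0.085 (adjusted p = 0.794) and -0.01 (adjusted p = 0.989). MRPL12, the stalk protein of the large subunit, had 9.92, 10.11 and 10.51 with miR-17-5p, against 9.90, 10.47 and 10.53 with miR-27a, 10.96 and 10.999 with miR-23b, and 11.57 and 11.24 with miR-182-iso; the isomiR libraries, which do not enter this comparison, had 10.42, 10.57 and 10.80. Its miR-17-5p libraries overlapped those of miR-27a. The difference was -0.72 (adjusted p = 0.0262), and -0.46 (adjusted p = 0.114) without both miR-182-iso libraries. MRPL41, a large-subunit protein with no bacterial counterpart, had 9.80, 10.07 and 10.27 with miR-17-5p, against 9.56, 9.93 and 10.29 with miR-27a, 10.68 and 10.84 with miR-23b, and 11.53 and 11.60 with miR-182-iso. Its isomiR libraries had 10.39, 10.22 and 10.05. As for MRPL12, the miR-17-5p and miR-27a libraries overlapped. The difference was -0.71 (adjusted p = 0.0199), and -0.30 (adjusted p = 0.272) without both miR-182-iso libraries. MRPL17, highest with miR-27a as given above, differed by -0.67 (adjusted p = 0.0224), by -1.02 (adjusted p = 0.00643) without both miR-182-iso libraries, and by -0.51 (adjusted p = 0.111) without miR-17-5p replicate 3.

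**Figure D4:**
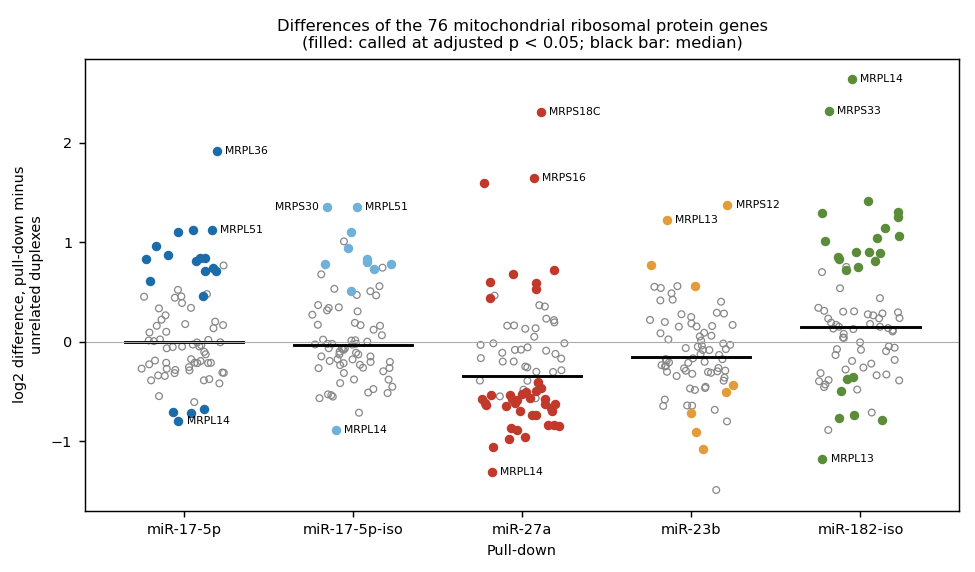
Each dot is a mitochondrial ribosomal protein gene, with its log2 difference between a pull-down and the unrelated duplexes on the vertical axis. Filled dots were called at an adjusted p under 0.05, and black bars mark the median of the 76 genes, the lowest being -0.35 with miR-27a.

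Set directly against its isomiR, miR-17-5p gave no called mitochondrial ribosomal protein gene: limma called 0 of 76 higher and 0 lower, against 0.37% and 0.907% of all genes. At an unadjusted p under 0.05, 7 members were higher with miR-17-5p (9.21%, against 6.66% of all genes) and 4 lower (5.26%, against 7.51%), shares near those of all genes. Differences ran between -0.93 (MRPL16) and 0.85 (MRPS7), with standard errors of 0.09 to 0.64, so differences of this size could not be resolved for many members. Leaving out miR-17-5p replicate 1 gave 1 higher and 2 lower calls (1% and 1.97% of all genes), and leaving out the second library of either group gave 1 higher call each (0.836% without that of miR-17-5p and 0.442% without that of the isomiR). MRPL36 was 0.82 higher with miR-17-5p (adjusted p = 0.195), with the lowest miR-17-5p library at 11.56 and the highest isomiR library at the same rounded value. MRPS30 differed by -0.39 (adjusted p = 0.327) and MRPL55 by 0.33 (adjusted p = 0.225).

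With miR-23b, few mitochondrial ribosomal protein genes were called: 4 of 76 higher (5.26%, against 6.67% of all genes) and 5 lower (6.58%, against 3.25% of all genes), with a median of -0.15 among members and -0.01 among all genes. None of the 9 calls held without miR-23b replicate 1 or without miR-23b replicate 2, which leaves a single library in that group, whose spread is then taken from the other groups. In those fits 0.298% and 0.442% of all genes were higher and 0.0716% and 0.155% lower. The lower count of members was 8 without miR-17-5p replicate 2 (4.18% of all genes) and 3 without miR-182-iso replicate 2 (1.67%).

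MRPS12 was the member most enriched with miR-23b, with signals of 12.003 and 12.18, against 11.499, 11.13 and 10.41 with miR-17-5p, 11.18, 11.18 and 10.86 with miR-17-5p-iso, 10.82, 10.49 and 10.58 with miR-27a, and 10.53 and 10.41 with miR-182-iso. Both miR-23b libraries lay above all others. The difference was 1.38 (SE 0.22, limma adjusted p = 0.00869), with 1.46 (adjusted p = 0.11) without replicate 1 and 1.29 (adjusted p = 0.0962) without replicate 2. MRPL13, lowest with miR-182-iso as given above, had its highest signals with miR-23b, 11.63 and 11.25, and differed by 1.22 (SE 0.20, adjusted p = 0.00908), with 1.03 (adjusted p = 0.167) and 1.41 (adjusted p = 0.0605) without replicate 1 and replicate 2. Each gene thus stood at an extreme in this pull-down in both of its libraries.

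MRPS15, a small-subunit protein, had 11.93 and 11.63 with miR-23b, against 10.96, 11.24 and 11.10 with miR-17-5p, 10.77, 11.07 and 10.39 with miR-17-5p-iso, 10.63, 10.54 and 10.87 with miR-27a, and 11.72 and 11.14 with miR-182-iso. Only the first miR-182-iso library reached the range of the miR-23b pair. The difference was 0.77 (limma adjusted p = 0.0369). MRPS5, also of the small subunit, differed by 0.56 (adjusted p = 0.0155), with 10.16 and 9.88 with miR-23b, above every other library. Of the 4 higher genes, 3 were thus small-subunit genes, and MRPL13 was the only large-subunit gene.

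MRPL3, which lies beside the site of peptide bond formation, was lower with miR-23b, at 11.12 and 11.48, against 11.41, 11.87 and 11.82 with miR-27a, 12.70, 12.38 and 13.17 with miR-17-5p, 12.21, 12.95 and 12.95 with miR-17-5p-iso, and 12.83 and 12.60 with miR-182-iso. The miR-23b and miR-27a libraries overlapped, and both lay below the other 3 groups. The difference was -1.08 (SE 0.24, limma adjusted p = 0.0256), and -0.91 (adjusted p = 0.0766) without both miR-182-iso libraries. MRPL9, a bacterial-type protein of the large subunit, had 7.70 and 7.70 with miR-23b, against 7.58, 7.996 and 7.90 with miR-27a, 8.90, 8.54 and 9.09 with miR-17-5p, 8.50, 8.96 and 8.91 with miR-17-5p-iso, and 8.92 and 9.43 with miR-182-iso. It showed the same division of the groups as MRPL3. The difference was -0.91 (adjusted p = 0.0193), and -0.62 (adjusted p = 0.0771) without both miR-182-iso libraries. MRPS30 (-0.71), MRPL55 (-0.51) and MRPS9 (-0.43) were the other genes lower with miR-23b, the last with -0.06 (adjusted p = 0.828) without both miR-182-iso libraries.

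Set directly against miR-27a, miR-182-iso differed in 36 of 76 member genes. Of these, 25 were higher with miR-182-iso (32.9%, against 20.2% of all genes) and 11 lower (14.5%, against 20.2% of all genes), with a member median of 0.32 and a median of 0.00 over all genes. Of the cytosolic ribosomal protein genes, 25 of 70 were higher (35.7%) and 4 lower in this comparison, with a median of 0.57. Without miR-182-iso replicate 2, 16 members were higher and 1 lower, beside 9.54% and 9.2% of all genes in that fit. The lower count was 5 without miR-182-iso replicate 1 (15.5% of all genes) and 7 without miR-27a replicate 2 (19.3%). Large-subunit genes had a median of 0.42 (18 of 50 higher, 7 lower) and small-subunit genes one of 0.23 (7 of 26 higher, 4 lower). MRPL14 (2.95, limma adjusted p = 3.14e-05), MRPS33 (2.54, adjusted p = 9.58e-05) and MRPL46 (1.79, adjusted p = 0.000394) were the 3 most raised. MRPS18C (-2.02, adjusted p = 0.0471), MRPS16 (-1.76, adjusted p = 0.00827) and MRPL17 (-1.74, adjusted p = 0.000298) were the most reduced, and the MRPS18C value was -1.30 (adjusted p = 0.115) without miR-27a replicate 3 and was not called in 9 of the 13 fits without 1 library. In 15 of the 36 the call held without each library in turn, MRPL17 among them, and MRPS16 lost its call without miR-182-iso replicate 2 (-1.51, adjusted p = 0.0875).

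The 3 relatives of bacterial S18 are given side by side with miR-27a. MRPS18A, which sits in the large subunit, had 9.37, 8.91 and 9.10 with miR-27a, against 8.68 and 8.68 with miR-23b, 8.34 and 8.21 with miR-182-iso, 8.42, 8.66 and 7.97 with miR-17-5p, and 8.43, 8.60 and 8.26 with miR-17-5p-iso. The miR-27a libraries were above all others, with a difference of 0.67 (SE 0.15, limma adjusted p = 0.00825). MRPS18B, in the small subunit, had 9.32, 9.48 and 9.57 with miR-27a, against 10.25 and 10.27 with miR-23b, 9.79 and 10.28 with miR-182-iso, 9.89, 9.71 and 9.39 with miR-17-5p, and 9.38, 10.18 and 9.49 with miR-17-5p-iso. Its miR-27a libraries were among the lowest and overlapped those of the miR-17 family, with a difference of -0.53 (SE 0.18, adjusted p = 0.0492). This call was lost in 9 of the 13 fits without 1 library, and without both miR-182-iso libraries (-0.51, adjusted p = 0.0946). MRPS18C, which takes the place of S18 itself, was higher by 2.31 as given above. The differences between the 3 genes' responses were not tested.

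For 23 genes with several probes, the probes could be compared as repeat measurements of one gene. Over the 5 comparisons with unrelated duplexes, all probes of a gene agreed, on a call or on none, in 88 gene and comparison pairs. A call stood beside no call in 26 pairs and opposite calls in 1. Most of the 88 were pairs in which no probe was called. Probes agreed on a call for MRPL18, MRPL21 and MRPS33 with miR-27a and miR-182-iso, and for MRPL55 with miR-17-5p, its isomiR and miR-27a. They also did for MRPL42 with miR-27a and MRPS21 with miR-182-iso. Where any probe was called, disagreement was thus the more frequent case. In 18 genes the probes differed in call at least once. Several of the probes that missed a call were dim, where differences are compressed by the transformation, and the part of this in the calls was not tested. The reverse was also seen with miR-182-iso, where the dimmer probe was called and the brighter was not. These genes were MRPL45 (1.66, against 0.44), MRPL22 (1.79, against 0.75), MRPL30 (0.96, against -0.22) and MRPL47 (0.63, against -0.06).

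The opposite calls were those of MRPL35, a bacterial-type large-subunit protein with 3 probes, in the miR-182-iso pull-down. Its second brightest probe had 8.62 and 8.39 with miR-182-iso, against 8.77, 8.75 and 8.66 with miR-27a, 9.23 and 8.995 with miR-23b, 9.17, 8.71 and 8.69 with miR-17-5p, and 8.98, 8.94 and 8.77 with miR-17-5p-iso, which gave -0.40. The dimmest had 8.25 and 8.56 with miR-182-iso, against 7.53, 7.92 and 7.77 with miR-27a, 7.61 and 7.88 with miR-23b, 7.95, 8.02 and 8.55 with miR-17-5p, and 7.81, 8.02 and 8.24 with miR-17-5p-iso, which gave 0.54. One probe was thus lowest, and another high, in the same libraries, while the brightest MRPL35 probe was not called there.

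MRPL30 had a pair of probes of similar brightness that also parted. The brighter had 8.06 and 8.08 with miR-182-iso, against 8.46, 8.97 and 8.47 with miR-27a, 7.77 and 8.02 with miR-23b, 8.31, 8.29 and 8.29 with miR-17-5p, and 8.04, 8.45 and 8.67 with miR-17-5p-iso. The other had 8.57 and 9.03 with miR-182-iso, against 7.48, 8.32 and 7.70 with miR-27a, 7.51 and 7.79 with miR-23b, 8.34, 7.94 and 8.06 with miR-17-5p, and 7.72, 8.40 and 7.74 with miR-17-5p-iso. The miR-182-iso libraries were low on one probe and highest on the other. For miR-182-iso against miR-27a the first gave -0.56 and the second 0.97, both called, so that no direction can be given for MRPL30.

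MRPS12 had 3 probes, of which the second gave 9.49 and 9.29 with miR-23b, against 8.91, 8.81 and 8.44 with miR-17-5p, 8.70, 8.64 and 8.45 with miR-17-5p-iso, 8.54, 8.32 and 8.42 with miR-27a, and 8.70 and 8.55 with miR-182-iso. The miR-23b pair was highest, as on the brightest probe. The third stayed between 7.44 and 7.57 in all libraries, at the bottom of the scale. MRPL45, which lines the exit of the large subunit, had a dim probe at 8.91 and 9.92 with miR-182-iso, against 7.46, 7.69 and 7.61 with miR-27a, 7.67 and 7.71 with miR-23b, 8.04, 7.95 and 8.29 with miR-17-5p, and 7.69, 8.08 and 7.93 with miR-17-5p-iso. It differed by 1.66, whereas the bright MRPL45 probe differed by 0.44 and was not called. MRPL22, which lines the peptide tunnel, had a dimmer probe at 10.32 and 10.55 with miR-182-iso, against 8.01, 9.15 and 8.69 with miR-27a, 8.45 and 8.70 with miR-23b, 8.76, 8.61 and 8.60 with miR-17-5p, and 8.34, 9.37 and 8.78 with miR-17-5p-iso. That probe differed by 1.79 and the brighter by 0.75, without a call. For both genes the called probe was not the one that stands for the gene in the counts.

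MRPL3 had a second probe at 7.61, 7.63 and 7.83 with miR-17-5p and 7.57, 7.87 and 7.99 with miR-17-5p-iso, against 7.58, 7.56 and 7.57 with miR-27a, 7.46 and 7.56 with miR-23b, and 7.57 and 7.65 with miR-182-iso. It missed the calls of the bright MRPL3 probe, with differences of 0.13 with miR-17-5p and 0.25 with miR-17-5p-iso. The probes of MRPL18, MRPL21 and MRPS33, in contrast, were each called higher with miR-182-iso. Over all 102 probes, 27 were higher and 8 lower with miR-182-iso (against 17% and 15.4% of all probes), and 10 were higher and 38 lower with miR-27a (against 15.2% and 15.1%).

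**Figure D5:**
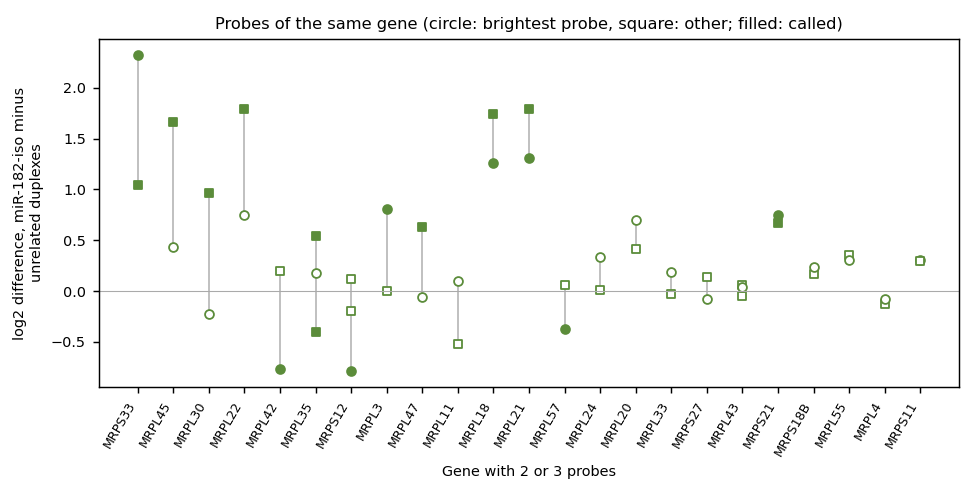
Each column is a gene with 2 or 3 probes and each symbol a probe, with the log2 difference between miR-182-iso and the unrelated duplexes on the vertical axis (circle, the brightest probe; square, another probe; filled, called). Genes are ordered by the distance between their probes, and MRPL35 has a filled symbol on each side of 0.

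Other genes of mitochondrial translation were counted over whole lists. Shares of all genes called higher and lower were 17.1% and 16.9% with miR-27a, 16.9% and 17.3% with miR-182-iso, and 5.81% and 4.91% with miR-17-5p. They were 5.47% and 3.13% with miR-17-5p-iso, and 6.67% and 3.25% with miR-23b. Of 3 mitochondrial ribosomal proteins with other symbols, 1 was lower with miR-27a and 1 higher with miR-23b. No other call was made among them, and their median with miR-182-iso was -0.17. Of 11 translation factors, 3 were higher (27.3%) and 2 lower (18.2%) with miR-27a. Among them were TUFM, the elongation factor that brings tRNAs to the ribosome (-0.73), and GUF1, a GTPase that binds the ribosome (0.74). With miR-182-iso, 2 were higher (18.2%) and 5 lower (45.5%, against 9.21% of members), with TUFM at 0.79 and GUF1 at -1.15. Both genes thus had opposite signs in the 2 pull-downs, which enter each other's comparator. The remaining factors are not named here, so TUFM and GUF1 do not stand for the list. Of 21 genes for assembly of the mitochondrial ribosome, 3 were higher (14.3%) and 5 lower (23.8%) with miR-27a. With miR-182-iso, 1 of them was higher (4.76%) and 2 lower (9.52%). Of 20 mitochondrial tRNA synthetases, 1 was higher (5%) and 4 lower (20%) with miR-27a, whereas 5 were higher (25%) and 3 lower (15%) with miR-182-iso. Of 6 genes used as marks of mitochondrial content, 3 were higher with miR-17-5p (median of the list 0.50) and 3 with the isomiR (0.46), 2 were higher and 1 lower with miR-182-iso, 1 was lower with miR-23b, and 3 were lower with miR-27a (-0.34). The 3 lower with miR-27a were COX4I1, a subunit of cytochrome c oxidase (-0.78), ATP5F1B, the catalytic subunit of ATP synthase (-0.65), and VDAC1, the outer membrane channel (-0.49). COX4I1 was 0.91 and VDAC1 0.74 higher with miR-17-5p, and COX4I1 and ATP5F1B were 0.58 and 0.70 higher with miR-182-iso. These genes were thus called in the same pull-downs as many members, and the part of such a shift in the member counts was not tested.

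As a description of likeness, each gene's signal over the 13 libraries was correlated with the median profile of the members. Of 76 members 57 had an r above 0, with a median of 0.44, against 0.00 over all genes, and the members closest to the profile were MRPL24 (0.85), MRPL21 (0.78) and MRPL46 (0.76). MRPS16 (-0.67), MRPL17 (-0.66) and MRPL42 (-0.59), all higher with miR-27a, ran most against it. Outside the family, NUP88 (0.92), LSM7 (0.92), SMYD3 (0.91), ATP5F1B (0.91) and RPL26 (0.91) were closest. The 13 points share libraries and normalization, and members are part of the profile they were set against.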

How the data were processed

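Captured RNA was hybridized to Illumina HT-12 bead arrays. The study names more than 1 array version over all its experiments (the version of these libraries: not given in the sources used here). Deposited values are on a log2 scale: with lumi 2.2.1, the authors adjusted the background, stabilized the variance by transformation and normalized by robust splines, keeping probes with a detection p under 0.01 in all mock controls. A second deposited table, of 26 columns with non-normalized signals and detection p-values, was not used because its column names match no sample. Symbols came from the platform annotation; all 102 member probes matched a RefSeq gene. No library pair was identical.

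Differences were tested with limma 3.58.1 in R 4.3.3 (lmFit, eBayes, two-sided) in 1 model of 5 groups. Each pull-down was compared with the unrelated families weighted equally, miR-17-5p and its isomiR counting as 1 family and left out of each other's comparator, with Benjamini-Hochberg adjustment over 12007 probes and calls at 0.05. The study itself compared with mock controls, so these are other contrasts. In simulated data of 12007 probes with 200 changed by 1 on the log2 scale, 92.5% were recovered for miR-27a and 83.5% for miR-17-5p-iso. Of the simulated calls, 7.53% were false for miR-23b and 3.47% for miR-17-5p-iso. The simulated libraries were independent and the comparator groups had no differences among them, unlike these data, so the recovery in these data is not known. Members and gene lists were chosen with earlier results of these data known. Values of every library are given for the 3 largest called differences in each direction, the 6 largest F values, the S18 relatives and genes whose probes differ in call; of the 18 such genes, only 6 have a further probe given by library, a choice made after their values were seen, and the other 12 are covered by counts or single differences. No binding sites were searched for, since no transcript sequences were used. Alternatives were a replicate block, another comparator, a stricter threshold, another probe per gene, quantile normalization, brighter probes only, an intensity trend, and leaving out libraries. Python 3.11.15 with pandas 2.3.3 and matplotlib 3.10.9 drew up the tables and plots.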

Additional observations from a re-analysis of the deposited data

How the results depend on the processing

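Of the 2844 refits of the called member genes under all alternatives, 2381 kept their call, 460 lost it and 3 reversed: MRPL14 with miR-17-5p without both miR-182-iso libraries (0.085, against -0.80), and MRPL30, with the probe of largest interquartile range, with miR-27a (-0.33, against 0.53) and in miR-182-iso against miR-27a (0.97, against -0.56). At an adjusted p under 0.01, the counts of genes called higher and lower were 7 and 0 with miR-17-5p, 3 and 12 with miR-27a, 2 and 0 with miR-23b and 4 lower with miR-182-iso against miR-27a, 2 were lower with miR-182-iso, and 25 varied by F. Shares of all genes at this threshold are not given here, so these counts are not read against them. Without both miR-182-iso libraries 2 were lower with miR-17-5p (9.52% of all genes) and 3 with miR-17-5p-iso (5.98%). In that fit 4 were higher (7.77%) and 14 lower (7.62%) with miR-27a, 1 was lower with miR-23b (1.6%) and 27 varied by F (23.5%). With all other pull-downs as comparator 1 was lower with miR-17-5p (2.72% of all genes). With the probe of largest interquartile range 2 were lower with miR-17-5p-iso, for which the share of all genes is not given. With an intensity trend 3 were lower with miR-23b (3.59% of all genes).

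Leaving out 1 library at a time, the counts ran from 7 to 15 higher and 1 to 10 lower with miR-17-5p, 5 to 11 and 0 to 3 with miR-17-5p-iso, 5 to 11 and 17 to 32 with miR-27a, 0 to 6 and 0 to 8 with miR-23b, 10 to 20 and 1 to 9 with miR-182-iso, 0 to 1 and 0 to 2 for miR-17-5p against its isomiR, 16 to 27 and 1 to 12 for miR-182-iso against miR-27a, and 33 to 50 by F. Calls held without each library in turn for 6 of 19 genes with miR-17-5p, 5 of 11 with miR-17-5p-iso, 16 of 41 with miR-27a, 0 of 9 with miR-23b, 9 of 25 with miR-182-iso and 15 of 36 for miR-182-iso against miR-27a. Shares of all genes changed between these fits too, so the ranges are not read alone. Replicate numbers were not taken as pairs. Of 23 same-numbered library pairs, 13 had deviations correlated above 0.1 (range -0.33 to 0.63), though 10 of 13 libraries correlated best with their own number. Same-numbered replicates 1 and 2 of miR-17-5p-iso, miR-23b and miR-27a correlated at 0.45 to 0.63. Those of miR-17-5p correlated with them at -0.33 to -0.16, so part of the libraries shared structure by number. With the number as a replicate block, 8 genes were lower with miR-23b (3.46% of all genes) and 30 lower with miR-27a (17.2%). In that fit 11 were higher with miR-17-5p (5.63%), where MRPL35, MRPS7, MRPL9 and MRPL49 were no longer called. Renormalizing the non-normalized signals with neqc was not run, since the columns could not be matched. Signals near the bottom of the scale, such as those of MRPS14, limit what can be seen for dim members.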
